A study of Homo sapiens with 6 samples.

Results

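The MYC, MAX and MXD network is a set of transcription factors, most of which share MAX as dimerization partner, while MLX is a MAX-like protein. Its 9 members were taken by gene symbol: MYC, MAX, MXD1, MXD3, MXD4, MXI1 (also known as MXD2), MNT, MGA and MLX. All 9 were among the 16444 genes of the authors' spike-in-normalized table and among the 12075 genes on assembled chromosomes of their transcript table. The cells were KMS-27, an established human multiple myeloma line, which the labels describe as bone marrow tissue. siControl cells, labelled as control, were compared with siChe-1 cells, in which Che-1, the product of AATF, was targeted by an siRNA. There were 3 libraries per group, prepared from 500 ng of total RNA depleted of ribosomal RNA. The time after transfection, the siRNA sequences and the origin of the replicates are not given in the sources used here, so the p-values reflect only how these libraries vary, which may be technical variation.

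MYC binds DNA only as a heterodimer with MAX, at E-boxes whose core is CACGTG, and raises transcription through coactivators such as TRRAP. MXD1, MXI1, MXD3, MXD4, MNT and MGA bind the same sites with MAX and lower transcription, the MXD proteins and MNT by recruiting SIN3 and histone deacetylases, and MGA as part of a Polycomb complex named PRC1.6. MLX is a MAX-like partner of the glucose-responsive Mondo proteins and of some MXD proteins. Multiple myeloma cells commonly carry rearrangements that raise MYC expression.

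The core CACGTG was searched in RefSeq promoter windows of GRCh38.p14, each of 300 bases reaching from 250 bases before a gene's start to 50 after it. The motif is its own reverse complement, so 1 search covers both strands. Of the members, 8 matched an entry of the promoter table (13 windows), and 3 of these 8, MXD4, MNT and MLX, held 1 CACGTG. Among all 35116 windows, 7.26% held it, and among the 27305 genes with a window 8.77% did. Among the 7662 genes with a window whose expression was high enough to be tested below, 13.2% did. The 8 members are too few for a comparison. The 250 bases before the start of these 3 members are shown because they place the network's own binding motif in its own genes, with the motif in capitals. Their positions are chr4:2262110-2262359 (minus strand) for MXD4, chr17:2401061-2401310 (minus strand) for MNT and chr17:42566850-42567099 (plus strand) for MLX. The first base of the motif lay 238, 193 and 50 bases before the start, in that order. A match describes letters in a window, and binding was not measured here.
MXD4: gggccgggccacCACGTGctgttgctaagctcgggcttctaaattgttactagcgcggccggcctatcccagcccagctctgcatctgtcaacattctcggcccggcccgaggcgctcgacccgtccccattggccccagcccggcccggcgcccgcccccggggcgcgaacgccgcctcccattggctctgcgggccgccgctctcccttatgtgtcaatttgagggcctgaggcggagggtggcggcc
MNT: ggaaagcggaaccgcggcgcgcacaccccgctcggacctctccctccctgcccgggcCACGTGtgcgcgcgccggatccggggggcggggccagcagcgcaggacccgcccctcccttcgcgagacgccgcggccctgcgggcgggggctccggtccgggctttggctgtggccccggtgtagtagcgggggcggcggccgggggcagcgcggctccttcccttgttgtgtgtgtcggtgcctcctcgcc
MLX: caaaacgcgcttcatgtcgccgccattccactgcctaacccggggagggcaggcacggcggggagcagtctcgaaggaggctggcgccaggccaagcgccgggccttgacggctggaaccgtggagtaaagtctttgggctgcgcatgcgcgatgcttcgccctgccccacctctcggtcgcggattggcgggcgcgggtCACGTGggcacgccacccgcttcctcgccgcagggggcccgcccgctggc

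The silenced gene was measured first. AATF had 97.0, 88.8 and 119 FPKM (fragment counts scaled to transcript length and to library size) in siControl against 14.2, 14.2 and 16.9 in siChe-1. Spike-ins, external RNAs of known sequence, took 351573 to 519573 reads in siControl and 379232 to 1041244 in siChe-1, and the lowest siChe-1 value, that of replicate 3, lay within the siControl range. siChe-1 replicate 3 is not part of the authors' spike-in-normalized gene table, so values on that scale come from 3 siControl and 2 siChe-1 libraries. In those 5 libraries 19169774 to 21780505 gene reads were recovered. They amounted to 38.8, 56.7 and 57.9 gene reads per spike-in read in siControl against 22.9 and 19.4 in siChe-1. All 10 of the plasma cell markers listed in the transcript table had a mean FPKM of at least 1, and their sum was 7334 to 10739 in siControl and 8699 to 12187 in siChe-1, with IGJ, the immunoglobulin J chain, the most abundant at 9229. Of the T and NK cell markers 2 were listed, the most abundant being GNLY at 0.659 FPKM, and the haemoglobin gene HBB stood at 0.279. The lists for mature B, myeloid, stromal and epithelial cells had 0 names in that table. In the spike-in table, 1 mature B, 2 T and NK, 2 myeloid, 1 stromal or endothelial and 1 epithelial marker had a mean of at least 10 normalized reads. The summed reads of these 5 lists were 13.3 to 71.4 in siControl and 7.80 to 34.0 in siChe-1 (authors' group means), against 447079 and 206510 for the plasma cell list.

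Levels of the members differed widely in siControl cells. MYC was the most abundant by FPKM, a level per transcript length, with 293 ± 14.7 (SD, n = 3). MXI1 followed with 58.6 ± 5.60 and MXD3 with 52.8 ± 15.2, values that did not differ beyond their spread. The next 4, MGA with 28.1 ± 2.72, MLX with 25.01 ± 2.36, MXD1 with 22.3 ± 4.04 and MAX with 20.4 ± 1.44, each lay within the summed SDs of the next. MXD4 had 15.5 ± 0.345 and MNT 1.03 ± 0.354. MNT was the only member near 1 FPKM. The FPKM of MXD3 is uncertain: the authors' table gives it the same locus span, on chr5, as PRELID1 on the opposite strand (77.1 FPKM on average). MXD3 had 5.83 recovered reads per FPKM where the other 8 members had 62.4 to 320. MLX shares its span with PSMC3IP (39.5 FPKM), and MAX with CHURC1 (11.7 FPKM) among others. Both of these lie on the opposite strand, and their part in the FPKM of MLX and MAX was not tested.

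**Figure D1:**
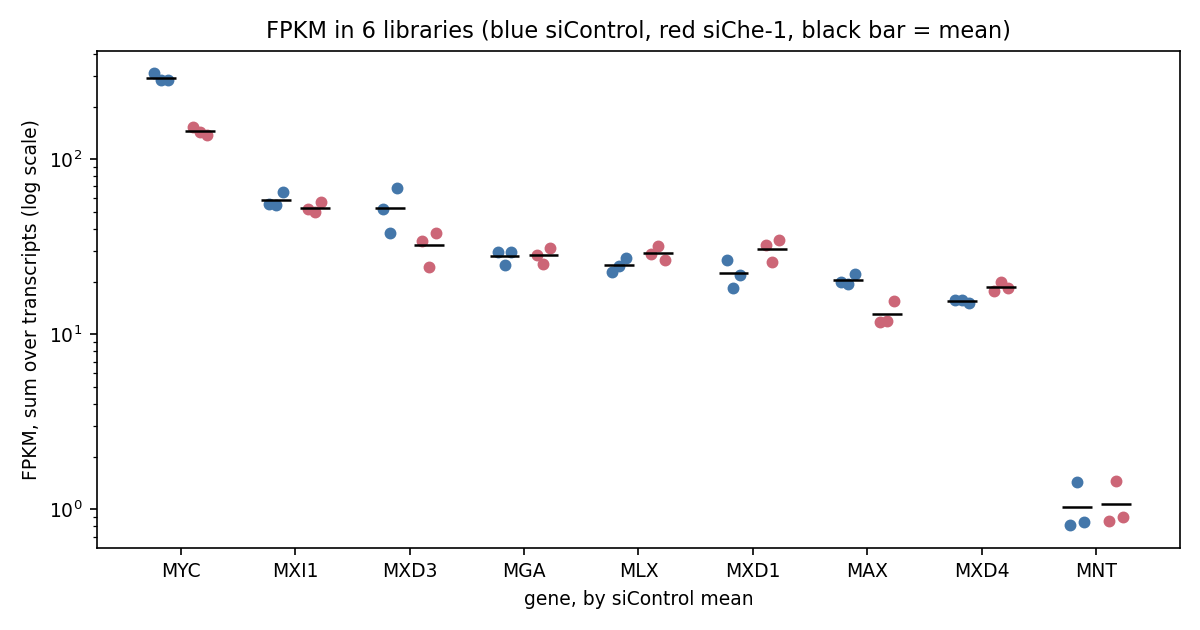
FPKM summed over the transcripts of each member (log scale), 1 point per library, siControl in blue and siChe-1 in red, with the group mean as a black bar. MYC lies above all other members in both groups, and its siChe-1 points (138 to 153) lie below its siControl points (284 to 310).

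Relative to the spike-ins, every member was lower in siChe-1 than in siControl, as were most genes. In normalized reads (reads divided by the authors' spike-in size factor), MYC, on hg19 chr8:128748315-128753680, had 20967, 28571 and 27928 in siControl against 6923 and 4631 in siChe-1. Each siChe-1 value lay below each siControl value. The authors' deposited table gives a log2 change of -2.16 (adjusted p 1.81e-05). MAX, on chr14 within the locus span 65381079 to 65569227, had 1305, 1852 and 2110 in siControl against 505 and 395 in siChe-1. Its groups did not overlap either, and the change in the authors' deposited table was -1.96 (adjusted p 0.000257). MYC and MAX had the largest changes of the 9, and the authors' median over all genes with a mean of at least 10 was -1.25.

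The other members had smaller changes on that scale, and the differences from MYC and MAX were not tested. MGA had 10501, 13216 and 14934 normalized reads in siControl against 5803 and 4671 in siChe-1, with -1.30 (adjusted p 0.00535) in the authors' deposited table. MXI1 had 4999, 7370 and 8178 against 2760 and 2256, with -1.45 (adjusted p 0.00368). In both, the siChe-1 values were all below the siControl values. MXD1 had 3622, 3725 and 4619 against 2640 and 1804, MXD4 had 1767, 2391 and 2304 against 1457 and 899, and MXD3 had 217, 330 and 383 against 214 and 140. MNT had 200.2, 422 and 277 against 156 and 125. In the authors' deposited table these 4 had -0.84, -0.87, -0.81 and -1.09 with adjusted p of 0.0534, 0.0546, 0.134 and 0.145. MLX had 2158, 3319 and 3524 against 1719 and 1372, with -0.96 (adjusted p 0.0427) in that deposited table.

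In all 9 members the siChe-1 libraries lay below the siControl libraries in normalized reads, where 89.5% of all tested genes did so. The authors' adjusted p was under 0.05 for 5 of the 9, all lower, against 63.5% of genes called lower. The median member change was -1.09, less negative than the -1.25 of all genes. When the recovered reads were tested by edgeR (quasi-likelihood) with the same spike-in factors, all 9 were called lower, against 84.3% of 12468 genes. Its changes were -2.16 ± 0.33 (SE) for MYC, -1.96 ± 0.36 for MAX, -1.45 ± 0.33 for MXI1, -1.30 ± 0.32 for MGA, -1.09 ± 0.39 for MNT, -0.96 ± 0.33 for MLX, -0.87 ± 0.34 for MXD4, -0.84 ± 0.33 for MXD1 and -0.81 ± 0.38 for MXD3. The count fell to 3 without siChe-1 replicate 2, to 4 without siControl replicate 2 and to 5 without siControl replicate 3. All libraries were prepared from 500 ng of total RNA, and whether spike-ins were dosed per cell or per amount of RNA is not known here. Fewer cells, less RNA per cell and a different dose of spike-ins cannot be told apart in bulk RNA. Which of these could move the spike-in share of the reads depends on how the spike-ins were dosed, and was not tested.

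**Figure D2:**
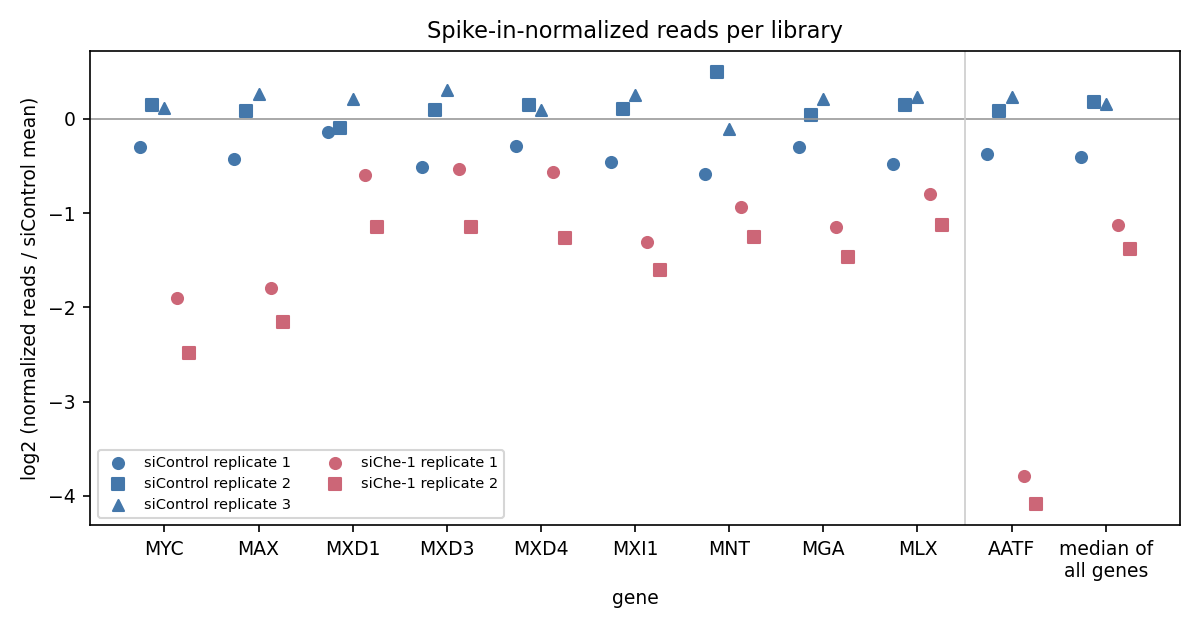
Normalized reads of each member and of AATF per library, as the log2 ratio to the siControl mean of that gene, with 3 siControl and 2 siChe-1 libraries. All siChe-1 points lie below the siControl points of the same gene, and those of MYC (-1.90 and -2.48) and MAX (-1.80 and -2.15) are lower than those of the other members.

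Relative to other genes, MYC and MAX fell while the other members gave no shared direction. The FPKM of all 6 libraries were rescaled by median of ratios and tested with limma on log2(FPKM + 1), a scale that understates changes of low genes. MYC had 310, 285 and 284 FPKM in siControl against 153, 143 and 138 in siChe-1. The siChe-1 values were close to one another and far below all siControl values, and MYC fell by 0.98 on the log2 scale (SE 0.10, limma adjusted p 0.00128). MAX had 19.9, 19.4 and 22.1 in siControl against 11.7, 11.97 and 15.5 in siChe-1. These groups did not overlap, and MAX fell by 0.58 (SE 0.11, limma adjusted p 0.00852). Both calls were kept in each of the 11 alternatives to this fit. The median change of the 10778 genes tested was 0.00 on this scale.

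Among the MXD genes, MXD4 was the 1 member called higher. MXD4, on chr4:2249160-2263739, had 15.7, 15.6 and 15.1 FPKM in siControl against 17.8, 19.99 and 18.5 in siChe-1. Its groups did not overlap, and it rose by 0.29 ± 0.08 (SE, limma adjusted p 0.0293), but the adjusted p was 0.0568 to 0.102 whenever any 1 of the 6 libraries was left out, and 0.0515 on the deposited scaling. MXD1, on chr2:70142173-70170076, had 26.5, 18.5 and 21.95 against 32.5, 25.8 and 34.6. The lowest siChe-1 value lay below the highest siControl value, and its difference was 0.49 ± 0.16 (limma adjusted p 0.0572). MXD1 passed the threshold without siChe-1 list position 2 (adjusted p 0.0250) or without siControl list position 1 (0.0312), where position is the place of a value in the authors' list, which carries no replicate number. It also passed at a mean FPKM of at least 10 (adjusted p 0.0243) and with upper quartile scaling (0.0308). MXI1, on chr10:111967363-112047123, had 55.5, 55.2 and 65.0 against 52.1, 49.96 and 56.8, with overlapping groups and a difference of -0.11 ± 0.09 (limma adjusted p 0.419).

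Set against other genes, MXD3 had opposite directions in FPKM and in reads, and neither passed the test. Its FPKM were 51.8, 38.2 and 68.5 in siControl against 34.3, 24.4 and 38.0 in siChe-1, with no overlap after rescaling and a difference of -0.65 ± 0.23 (limma adjusted p 0.0723, and 0.0188 without siControl list position 2). In the recovered reads, set against other genes by TMM scaling, its difference was 0.42 ± 0.17 (edgeR adjusted p 0.0728). PRELID1, which shares the span chr5:176730835-176739292 in the authors' table, had 95.6 ± 13.8 FPKM in siControl and 58.6 ± 10.7 in siChe-1, a limma difference of -0.67. Its part in the FPKM of MXD3 was not tested.

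MNT, MGA and MLX were not called. MNT, on chr17:2287354-2304258, had 0.812, 1.44 and 0.849 FPKM against 0.854, 1.46 and 0.90, so both groups spanned nearly the same values (0.04 ± 0.17, limma adjusted p 0.872). MGA, on chr15:41952610-42062141, had 29.7, 24.96 and 29.7 against 28.4, 25.1 and 31.3 (0.04 ± 0.11, limma adjusted p 0.831). MLX, on chr17 within the locus span 40719078 to 40729849, had 22.8, 24.7 and 27.5 against 28.9, 32.0 and 26.6. Its groups overlapped by 1 siChe-1 library, and the difference was 0.25 ± 0.10 (limma adjusted p 0.109). A p above the threshold does not show that these levels were equal.

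By limma, 2 of 9 members were lower, where 13.8% of genes were, and 1 of 9 was higher, where 13.4% of genes were. Groups did not overlap after rescaling in 3 lower members (MYC, MAX and MXD3) and in 1 higher member (MXD4), against 21.8% of genes lower and 21.6% higher. The median member difference was 0.04. TMM scaling of the recovered reads called MYC (-0.95 ± 0.12, edgeR adjusted p 0.000171) and MAX (-0.73 ± 0.12, adjusted p 0.000765) lower and 0 members higher, against 15.3% of genes lower and 13.5% higher. At an unadjusted p under 0.05 edgeR had 4 higher (MXD1, MXD3, MXD4 and MLX), and limma on FPKM had 3 (MXD1, MXD4 and MLX). The share of all genes at that unadjusted threshold is not given here, so these counts are a description only. MXD1, MXD3, MXD4 and MLX had TMM differences of 0.28 to 0.42 with edgeR adjusted p of 0.0521 to 0.0955. MXI1 had -0.21, MGA -0.08 and MNT 0.16. Leaving out siChe-1 replicate 2 called MXD4 higher (0.55, adjusted p 0.0201), and leaving out siControl replicate 1 called MXD1 higher (0.49, adjusted p 0.0261).

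**Figure D3:**
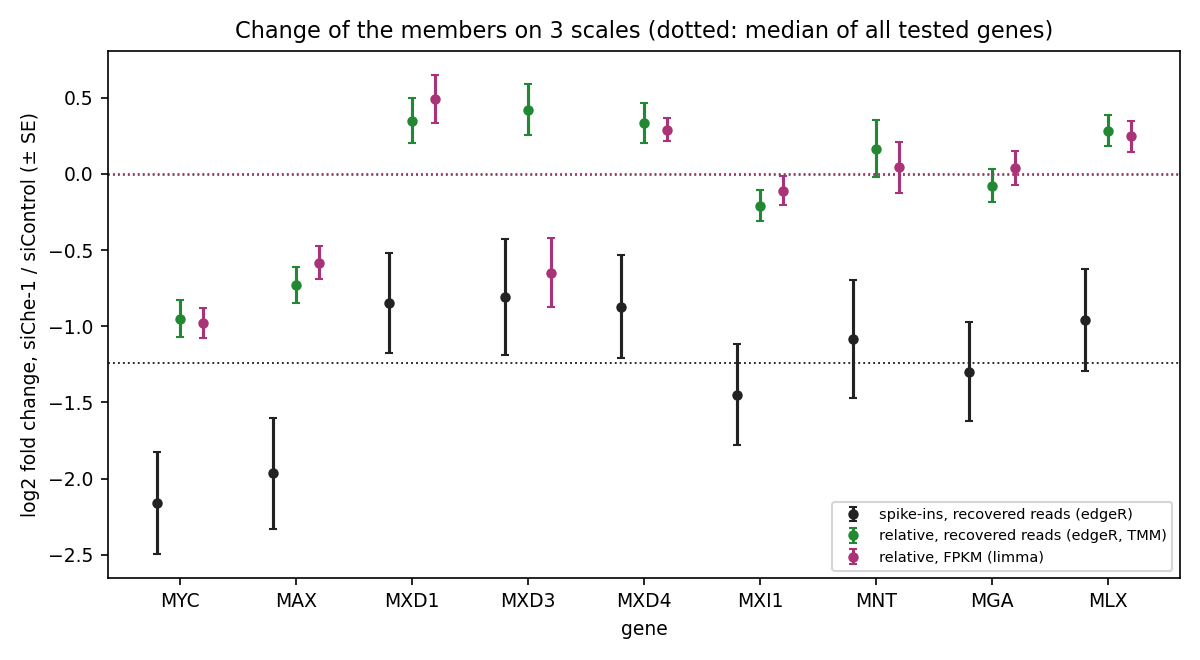
Log2 change of each member, siChe-1 over siControl, with its SE, by edgeR on the spike-in scale, by edgeR with TMM scaling and by limma on FPKM, with dotted lines at the median of all tested genes on each scale (-1.24, -0.01 and 0.00). MYC, MAX and, by a smaller distance, MXI1 lie below the median on all 3 scales, and MXD3 lies on different sides of it in TMM reads and FPKM.

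At the level of transcripts, 16 of the 18 transcripts of the members had a mean FPKM of at least 1 and were tested. By limma the MYC transcript NM_002467 was lower (-0.97 ± 0.09, adjusted p 0.00823, and 0.0533 without siChe-1 list position 3), making 1 of 16 lower where 5.39% of transcripts were. None of the 16 was called higher by limma, against 4.37% of transcripts. At an unadjusted p under 0.05, 3 were higher (MXD1 NM_002357, MXI1 NM_005962 and MXD4 NM_006454), and the share of all transcripts at that threshold is not given here. The authors' deposited table gives a q under 0.05 for 3 of the 18, MYC lower, MXD3 NM_001142935 lower and MXD1 NM_002357 higher, against 18.3% of all transcripts in either direction.

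The shares of the 2 most abundant MXI1 transcripts did not overlap between the groups, while the summed MXI1 level did not pass the test. NM_005962 made up 3.61, 5.96 and 3.64% of MXI1 FPKM in siControl against 7.14, 11.7 and 8.79% in siChe-1. The shares did not overlap, with means of 4.4% ± 1.35 and 9.21% ± 2.30 (SD, n = 3). NM_130439, the main transcript, made up 94.8, 91.1 and 93.7% in siControl against 90.1, 84.1 and 89.5% in siChe-1. Its shares did not overlap either, but these 2 transcripts make up nearly all of MXI1, so their shares largely mirror each other. In FPKM, NM_005962 went from 2.55 ± 0.662 to 4.85 ± 1.06 (log2 difference 0.75 ± 0.19, limma adjusted p 0.0639), which missed the threshold, and the difference in share was not tested. How many transcripts of all genes had shares without overlap was not counted, so the separation is a description only. The MAX transcripts NM_002382 and NM_145112, whose proteins differ by a short insert, took 50.8% ± 6.92 and 46.6% ± 6.01 of MAX in siControl and 50.2% ± 8.84 and 48.1% ± 9.61 in siChe-1. Their limma differences were -0.57 (adjusted p 0.0652) and -0.50 (adjusted p 0.193). The shares of the MGA and MLX transcripts overlapped between the groups.

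Ratios within a library do not depend on scaling to library size or spike-ins. The ratio of MYC to the summed FPKM of MXD1, MXD3, MXD4 and MXI1 was 2.07, 2.23 and 1.67 in siControl against 1.12, 1.19 and 0.935 in siChe-1. The groups did not overlap, and the log2 ratio went from 0.98 ± 0.22 to 0.11 ± 0.18 (SD, n = 3). Without MXD3 the ratio was 3.17, 3.19 and 2.79 in siControl against 1.49, 1.498 and 1.26 in siChe-1, a log2 difference of -1.11. The recovered reads of 5 libraries gave -1.05 with MXD3 in the sum. MYC to MAX was 15.6, 14.7 and 12.9 in siControl against 13.0, 11.98 and 8.90 in siChe-1, and these groups overlapped (log2 difference -0.36). MNT to MAX had log2 values of -4.61, -3.75 and -4.70 in siControl against -3.78, -3.04 and -4.11 in siChe-1, which also overlapped, while in the recovered reads this log2 ratio was higher by 0.92 in siChe-1, without overlap.

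**Figure D4:**
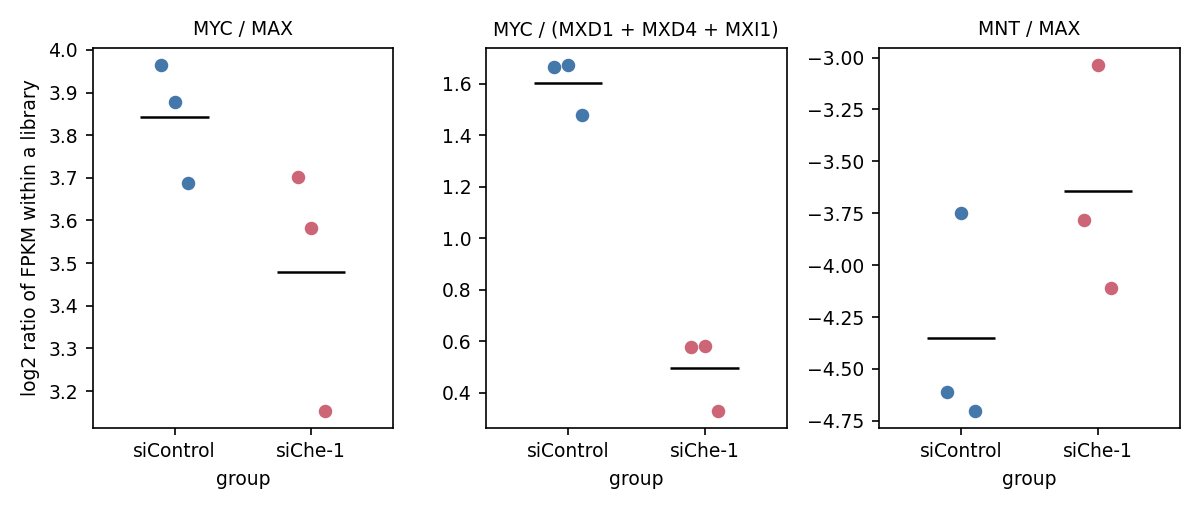
Log2 ratios of FPKM within each library, 1 point per library in 2 groups of 3. MYC to the sum of MXD1, MXD4 and MXI1, without MXD3, separates the groups (1.48 to 1.67 in siControl and 0.33 to 0.58 in siChe-1). MYC to MAX and MNT to MAX overlap.

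The genes whose rescaled FPKM pattern over the 6 libraries was nearest to that of MYC were SOD2, SSR1, NUP50, SLC25A43 and SLC39A8. Likeness was the root mean square difference of log2 values, each set relative to its gene's siControl mean, over 6284 genes whose mean FPKM reached 10, where the median gene differed from MYC by 0.671. SOD2, a mitochondrial superoxide dismutase, differed by 0.060 and had 19.6, 18.5 and 18.0 FPKM in siControl against 8.73, 9.32 and 8.72 in siChe-1. SSR1, a subunit of the translocon-associated complex of the endoplasmic reticulum, differed by 0.067, and the nuclear pore gene NUP50 by 0.077. The carrier genes SLC25A43 and SLC39A8 differed by 0.089 and 0.090. MAX ranked 397th in likeness, at 0.331.

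Genes around the network were described by 9 lists, with limma on FPKM. The lists' counts are read against the 13.8% of all genes lower and 13.4% higher by limma, and the 15.3% and 13.5% with TMM. These shares are at an adjusted p under 0.05. The shares at an unadjusted p under 0.05 are not given here, so the lists' unadjusted counts are a description only. Of genes commonly activated by MYC, 45 of 67 tested were lower and 0 higher, with a median of -0.52, and 56 were lower and 0 higher at an unadjusted p under 0.05. TMM reads gave 44 of 63 lower and 0 higher. SORD, sorbitol dehydrogenase, had 70.8, 59.0 and 74.9 FPKM in siControl against 24.3, 21.97 and 22.9 in siChe-1, without overlap (-1.49 ± 0.11, adjusted p 0.000579). HK2, which starts glycolysis by phosphorylating glucose, had 26.9, 27.98 and 27.6 against 12.9, 15.9 and 13.2 (-0.90 ± 0.09, adjusted p 0.00122). NPM1, a nucleolar protein of ribosome assembly, went from 2114 ± 345 to 1286 ± 108 FPKM (-0.67 ± 0.16, adjusted p 0.0191). Many other genes of this list also act in ribosome assembly, and they were not set apart from the rest. The list was chosen with earlier results of these data known. On the spike-in scale the authors' deposited table had 66 of 69 of this list lower, with a median of -1.76, where 63.5% of all genes were lower and their median was -1.25. Of the 56 listed genes with a promoter window, 55.4% held CACGTG, beside 13.2% of the 7662 genes with a window tested by limma. This describes a list whose members were partly chosen elsewhere as MYC targets. It was found in 3 of the 7 genes repressed by MYC that have a window, too few of that list for a comparison.

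Of genes commonly repressed by MYC, 0 of 12 tested were lower, also at an unadjusted p under 0.05, and 4 were higher, with a median of 0.31. TMM reads called 0 of 13 lower and 3 higher, with 1 lower, FOXO3, at an unadjusted p under 0.05. The 4 were CDKN1A (1.598, limma adjusted p 0.0206), CDKN2B, KLF4 and NDRG2 (0.45, adjusted p 0.0103). CDKN1A, a cyclin-dependent kinase inhibitor, had 1.66, 2.13 and 8.76e-05 FPKM in siControl against 4.78, 5.65 and 4.82 in siChe-1, with 1 siControl value near 0, and its recovered reads gave 1.71 with TMM (edgeR adjusted p 0.000138). CDKN2B, an inhibitor of cyclin D kinases, had 4.61, 4.72 and 3.89 FPKM in siControl against 6.58, 7.72 and 8.74 in siChe-1 (0.71 ± 0.11, adjusted p 0.00494). KLF4, a zinc finger factor, had 4.84, 4.63 and 4.6 against 6.87, 7.23 and 6.33 (0.48 ± 0.09, adjusted p 0.00775). Neither pair of groups overlapped. FTH1, the ferritin heavy chain, differed by 0.29 (adjusted p 0.143). Relative to the spike-ins, the authors' deposited table had 4 of 13 of this list lower and 0 higher, with a median of -0.89, and gave CDKN1A 0.50 (adjusted p 0.298), CDKN2B -0.46 (adjusted p 0.353) and KLF4 -0.56 (adjusted p 0.277).

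Among 18 coactivators and cofactors, 5 were lower and 2 higher by limma, beside 13.8% and 13.4% of all genes, with a median of -0.08. TMM reads called 4 lower and 3 higher, without CTR9 and with EP400 (0.39, adjusted p 0.0305) added. The lower ones were the AAA ATPases RUVBL1 (-0.58) and RUVBL2 (-0.62), ACTL6A (-0.34), MYCBP (-1.02) and CTR9 (-0.40). RUVBL2 had 47.2, 56.7 and 52.5 FPKM against 30.4, 33.8 and 33.9, without overlap (adjusted p 0.00351). BPTF (0.52, adjusted p 0.00448) and the scaffold TRRAP (0.29, adjusted p 0.0319) were higher relative to other genes, while the authors' deposited spike-in values for them were -0.74 and -0.93. Of 15 SIN3 and NCOR corepressor genes, SAP18 (-0.38) and SUDS3 (-0.25) were lower and the deacetylase HDAC1 (0.29) higher, with adjusted p of 0.0323, 0.0470 and 0.0456 and a list median of 0.02. TMM reads called SAP18, SUDS3 and SAP30 (-0.44, adjusted p 0.0275) lower and 0 higher, with HDAC1 at 0.26 (adjusted p 0.0602) and as the 1 gene higher at an unadjusted p under 0.05. By limma, 4 were higher at an unadjusted p under 0.05 (SIN3A, HDAC1, RBBP4 and ARID4B) and 2 lower (SAP18 and SUDS3). HDAC1 was lower relative to the spike-ins in the authors' deposited table (-0.98, adjusted p 0.0370). RBBP7, the most abundant, differed by 0.02 (adjusted p 0.883). Of 10 partners of MGA in PRC1.6, RYBP was lower by limma (-0.44, adjusted p 0.0294) and CBX3 had -0.28 (adjusted p 0.0797). TMM reads called 3 lower, RYBP (-0.68, adjusted p 0.00169), CBX3 (-0.39, adjusted p 0.0147) and YAF2 (-0.52, adjusted p 0.0141). No gene of the PRC1.6 list was higher, by limma or by TMM reads, also at an unadjusted p under 0.05.

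Of 20 genes acting on the stability of the MYC protein, 4 were lower and 2 higher by limma, beside 13.8% and 13.4% of all genes, with a median of -0.03. TMM reads called 3 of 19 lower, without PIM2, and the same 2 higher. The kinase genes PIM1 (-0.79, adjusted p 0.00243), PIM2 (-0.36) and AURKA (-0.41) and the phosphatase subunit PPP2CA (-0.34) were lower. PIM1 had 6.13, 6.66 and 5.76 FPKM in siControl against 2.88, 2.86 and 3.54 in siChe-1, without overlap. The F-box genes FBXO32 (0.43, adjusted p 0.0131) and BTRC (0.33, adjusted p 0.0181) were higher relative to other genes, where the authors' deposited spike-in values were -0.80 and -0.93. SET, the most abundant of this list, had -0.24 (adjusted p 0.175). Of 13 genes acting on MYC transcription or mRNA, CNBP (-0.57, adjusted p 0.00702) and PTBP1 (-0.32, adjusted p 0.0242) were lower by limma. TMM reads called only CNBP lower of 12 tested, with PTBP1 at -0.30 (adjusted p 0.0506). None was higher by limma or TMM reads, with STAT3 higher at an unadjusted p under 0.05 in both, and HNRNPK had a limma difference of -0.19 (adjusted p 0.164). CNBP, a zinc finger protein that binds nucleic acids, had 260.3, 242 and 241 FPKM against 150.3, 182 and 157.

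Of 14 other E-box factors tested by limma, 1 was lower, beside 13.8% of all genes: SREBF1, a regulator of lipid synthesis (13.2, 17.3 and 13.0 FPKM against 7.77, 10.5 and 8.81, a difference of -0.60 and an adjusted p of 0.0181). None was higher by limma or by TMM reads, with TFEB higher at an unadjusted p under 0.05 in both. TFAP4 had -0.51 by limma (adjusted p 0.0591) and was called lower, with SREBF1, by TMM reads (-0.62, adjusted p 0.00373). HIF1A, the most abundant, had 0.05 by limma (adjusted p 0.864). Relative to the spike-ins, 11 of the 14 were lower in the authors' deposited table, with a median of -1.22, beside the -1.25 of all genes. Of 3 tested genes of the other MYC and Mondo list, MYCL1, a relative of MYC at 1.42 FPKM in siControl, was lower (-0.54, adjusted p 0.0109). TXNIP, a target of the Mondo and MLX dimers, was higher relative to other genes, with 50.1, 54.1 and 50.2 FPKM in siControl against 75.1, 93.1 and 78.4 in siChe-1 (0.69 ± 0.10, adjusted p 0.00328). Its change on the spike-in scale in the authors' deposited table was -0.52 (adjusted p 0.338).

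**Figure D5:**
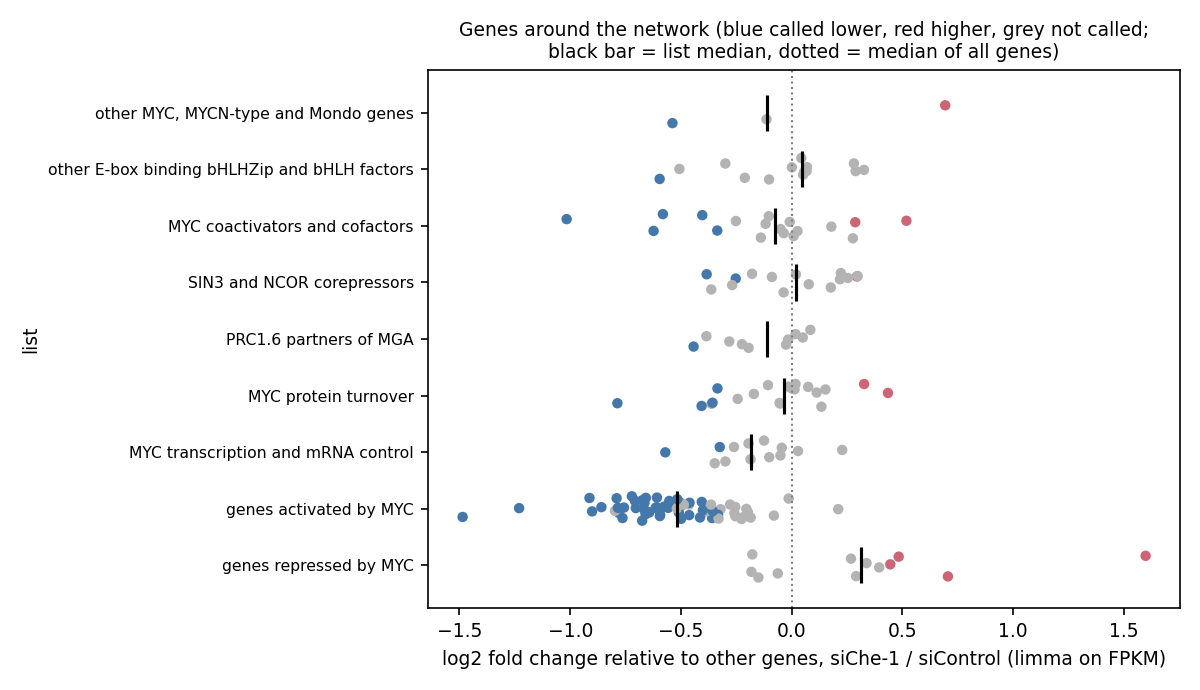
Limma log2 differences on FPKM for the genes of the 9 lists, 1 point per gene, coloured blue where called lower, red where called higher and grey where not called, with the list median as a black bar. Genes activated by MYC lie mostly below 0 (median -0.52) and genes repressed by MYC mostly above it (median 0.31).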

How the data were processed

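The 6 human libraries of the KMS-27 line, 3 per group, were grouped and numbered by their titles. The table of raw spike-in counts (92 spike-ins, 6 libraries) was used as deposited, per the file headers. The authors' gene table holds a normalized signal per group, a fold ratio, its log2, and p-values, per the file headers. The authors' transcript table holds FPKM lists of 3 values per group without replicate numbers, and, per the file headers, a log2 ratio with its p-value and q-value. TopHat, Cufflinks, Cuffdiff, HTSeq, DESeq2 and hg19 are named in the submitters' processing notes, without versions or roles. The sources used here do not give whether counting was by strand.

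Whole reads per library were recovered from the deposited means, which carry 15 digits, for 16321 of 16444 genes, all 9 members included. The other 123 genes allow more than 1 solution, carry 19.7% (siControl) and 18.8% (siChe-1) of all normalized reads, and were left out of tests on reads. Only siChe-1 replicates 1 and 2 fit the deposited means, by whole-read sums in 100% of 2139 low means.

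Recovered reads were tested with edgeR 4.0.16 (quasi-likelihood, mean of at least 10 normalized reads) on the authors' spike-in scale and with TMM scaling, and with DESeq2 1.42.0 as an alternative. FPKM were summed by gene, kept at a mean of at least 1, rescaled by median of ratios and tested with limma 3.58.1 (trend) on log2(FPKM + 1). Calls used an adjusted p (Benjamini-Hochberg over all features tested) under 0.05. Scripts were tested on simulated data.

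The members and lists were chosen with earlier results of these data known. Genes named are the members, AATF, from each list its most abundant gene and the 2 tested genes of smallest p, the 5 genes most like MYC and the most abundant gene of each marker list. Genes named to complete a count of 5 or fewer, PRELID1, PSMC3IP, CHURC1 and genes named for their TMM call were chosen after their values were seen. Starts and ends are locus spans in the authors' table, which for MAX and MLX also cover other genes. Protein sequences were not used here.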

Additional observations from a re-analysis of the deposited data

How the results depend on the processing

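On the spike-in scale, edgeR called 9 members lower. DESeq2 and a changed read minimum kept the count within 1.5 times, TMM or median-of-ratios scaling gave 2, and leaving out 1 library gave 3 to 9. Replicate numbers 1 and 2 occur in both groups. Deviations of same-numbered libraries correlated at 0.37 and 0.39. The deviations of the 2 siChe-1 libraries are exact negatives of each other, so these 2 values are not independent, and 2 pairs establish no pairing. siControl replicate 3 correlated at 0.13 with siChe-1 replicate 1. With a replicate block, edgeR called 0 members and 59 of 12468 genes. In that fit 2 members, MYC and MAX, had an unadjusted p under 0.05, and the share of all genes at that threshold is not given here. The FPKM lists carry no numbers to block on. Directions on the spike-in scale turned for MXD1, MXD3, MXD4, MNT and MLX, at 0.35, 0.42, 0.33, 0.16 and 0.28 with TMM and 0.34, 0.42, 0.33, 0.16 and 0.28 with median of ratios. Both alternatives centre the genes near 0, moving the median by 1.24 from that of the spike-in scale.

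On TMM reads, the 0 higher calls became 0 to 1 when 1 library was left out. On FPKM, the 1 higher call became 0 with the deposited scaling, 2 with a mean FPKM of at least 10, 2 with upper quartile scaling and 0 to 1 without 1 library. For transcripts, the 0 higher calls became 2 at a mean FPKM of at least 10, and the 1 lower call ranged from 0 to 1 without 1 library. The log2 difference of MYC to the MXD sum was -0.88 and became -1.11 without MXD3. Small differences turned when 1 library was left out: by gene, MGA ranged from -0.038 to 0.13 and MNT from -0.028 to 0.11. By transcript, NM_001080541 ranged from -0.096 to 0.19 (and had -0.0023 with the deposited scaling), NM_170607 from -0.25 to 0.13, NM_001008541 from -0.092 to 0.23 and NM_020310 from -0.025 to 0.11. The cause was not tested. Leaving out libraries from the TMM fit and MXD3 from the ratio were chosen after seeing the data. MNT, at 180 to 261 reads, and MXD3, at 195 to 320 reads, rest on the fewest reads.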
